A study of Mus musculus with 24 samples.

Results

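The 9 genes described here encode proteins that build and surround the photoreceptor outer segment: Prph2, Rom1, Fscn2, Prom1, Cdhr1, Rp1, Rp1l1, Impg1 and Impg2. They were taken by gene name from the deposited expression table, where each name had 1 row of the 56748 genes listed. The table covers the neural retina and the eye cup of 12 PRDM13-OE and wildtype mice, with 3 mice in each of 4 groups and therefore 24 libraries in 8 groups of 3. PRDM13-OE mice carried 1 copy of a cassette at the Rosa26 locus, in which the ubiquitous EF-1α promoter drives the reverse tetracycline transactivator and the TRE3G promoter drives 3xHA-tagged human PRDM13, on a C57BL/6J background. Wildtype mice were littermates without the cassette. Mice of the wildtype + dox and PRDM13-OE + dox groups drank 2 mg/mL doxycycline (dox) with 10% sucrose for 72 hours, beginning at postnatal day 28. The mice of both untreated groups were given no dox. Male and female mice were used. The eye cup holds the retinal pigment epithelium (RPE), choroid and sclera left after the neural retina is removed. The promoters of the cassette are not specific to photoreceptors. Transcripts of human PRDM13 were not analysed here.

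The outer segment is a modified cilium packed with membrane discs in which light is detected, and it is renewed continuously from its base. Peripherin-2 (Prph2) and Rom1 are related tetraspanins that form complexes at the rims of the discs and hold their curvature. Prominin-1 (Prom1) and the photoreceptor cadherin Cdhr1 lie at the edges of newly forming discs at the outer segment base, and fascin-2 (Fscn2) is an actin-bundling protein of photoreceptors. Rp1 and its relative Rp1l1 are doublecortin-domain proteins that associate with the microtubules of the axoneme and help to align the discs. Impg1 and Impg2 are proteoglycans of the interphotoreceptor matrix, the material between the outer segments and the RPE. Mutations in these genes are known causes of, or have been linked to, inherited retinal and macular dystrophies.

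Promoter sequences are shown for the 2 genes whose retinal transcripts differed most between the genotypes with dox, Cdhr1 and Fscn2, and for the disc rim pair Prph2 and Rom1. They come from RefSeq (build GRCm38.p6), each is the 250 bases before the annotated start site, read 5′ to 3′ on the gene's own strand, and each matched 1 place exactly in GRCm39, to which the coordinates refer. Capitals mark the homeodomain core TAAT or its complement ATTA, and the E-box pattern CANNTG, both searched on both strands.
Cdhr1, chr14:36820305-36820554, minus strand: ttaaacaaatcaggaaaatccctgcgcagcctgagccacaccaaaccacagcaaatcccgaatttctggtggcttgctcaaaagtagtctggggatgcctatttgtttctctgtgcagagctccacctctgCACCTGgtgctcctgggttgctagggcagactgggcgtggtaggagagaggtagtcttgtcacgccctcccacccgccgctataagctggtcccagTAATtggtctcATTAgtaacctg
Fscn2, chr11:120252110-120252359, plus strand: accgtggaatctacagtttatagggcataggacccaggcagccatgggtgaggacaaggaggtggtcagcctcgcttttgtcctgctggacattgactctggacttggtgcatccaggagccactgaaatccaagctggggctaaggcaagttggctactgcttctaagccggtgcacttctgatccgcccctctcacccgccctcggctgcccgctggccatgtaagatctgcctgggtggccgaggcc
Prph2, chr17:47221154-47221403, plus strand: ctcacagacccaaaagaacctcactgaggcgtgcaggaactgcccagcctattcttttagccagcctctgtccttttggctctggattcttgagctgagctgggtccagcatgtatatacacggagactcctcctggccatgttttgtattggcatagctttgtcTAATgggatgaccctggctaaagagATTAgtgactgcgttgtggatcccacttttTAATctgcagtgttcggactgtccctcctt
Rom1, chr19:8906721-8906970, minus strand: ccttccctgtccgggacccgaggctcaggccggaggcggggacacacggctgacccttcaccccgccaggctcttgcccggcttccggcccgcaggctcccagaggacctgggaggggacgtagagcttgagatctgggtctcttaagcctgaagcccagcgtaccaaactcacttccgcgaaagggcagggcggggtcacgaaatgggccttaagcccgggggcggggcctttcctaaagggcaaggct
The windows of Cdhr1, Fscn2 and Rom1 end at the base next to the gene start listed in the deposited table, and the last 19 bases of the Prph2 window lie inside the listed gene. The Cdhr1 window held 2 TAAT cores, 23 and 12 bases before the start site, and 1 CANNTG. The Prph2 window held 3 TAAT cores, and the Fscn2 and Rom1 windows held neither pattern. The share of G and C was 66.8% for Rom1, 59.2% for Fscn2, 53.2% for Cdhr1 and 49.6% for Prph2.

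In all, 7 of the 9 genes had an entry in the RefSeq table, with 8 windows because Prom1 had 2. None of the 8 windows held TAATCC (a CRX pattern), TGCTGA (NRL) or AAGTCA (NR2E3) on either strand. These 3 patterns, named for transcription factors of photoreceptors, were present in 6.25%, 16.1% and 13.1% of the 32851 promoters in the table. TAAT was found in 6 of the 8 windows and in 54.9% of all promoters, and CANNTG in 4 of the 8 and in 66.2%. The latter 2 patterns were added after the windows had been read. TAATCC contains TAAT, and in the Impg2 window alone matches of the same added pattern overlapped each other. A match or its absence describes these letters in these windows only.

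Total counts were between 16034800 and 21513207 per retina, and no pair of libraries held identical values. The 10 rod markers summed to between 66166 and 72499 CPM (read counts per library, scaled with edgeR's TMM factors) in the other 9 retinas and to between 49160 and 55652 in the PRDM13-OE + dox retinas. The 10 cone markers summed to between 1511 and 1741 CPM and to between 818 and 887 CPM, respectively. Single markers did not all follow their sum between the genotypes with dox (edgeR, adjusted p under 0.05). Of the 10 cone markers 8 were lower and 1 was higher, at a log2-fold change of 1.31. Of the 9 bipolar markers 4 were lower and 1 was higher, at 0.86. Over all genes tested, 7.51% were lower and 5.01% higher. The 5 red blood cell markers summed to between 0.709 and 1.18 CPM in the PRDM13-OE + dox retinas and between 21.6 and 77.8 CPM in the other 9 retinas. Lens crystallin transcripts stood apart in the wildtype + dox retinas, at 12242, 5381 and 144 CPM, compared with 30.5 to 889 CPM in the other retinas, so the tests, within-library ratios and rod-relative values that use this group are also given without the first and the second of these. Against the wildtype + dox retinas, the PRDM13-OE + dox retinas were also lower without overlap in the sums of the 9 bipolar markers (1159 to 1303 compared with 1425 to 1499 CPM) and the 8 amacrine markers (1619 to 1634 compared with 1782 to 1876 CPM). The sum of the 10 RPE markers (317 to 346 compared with 370 to 392 CPM) was likewise lower without overlap. So was that of the 7 sclera and choroid fibroblast markers (40.0 to 78.0 compared with 80.8 to 111 CPM). The Müller glia and skeletal muscle sums overlapped. Singly, 5 of the 10 RPE markers passed lower and 1 higher. Of the 8 Müller glia markers 4 passed lower and 2 higher. In bulk tissue, fewer cells of a type and less RNA per cell cannot be told apart. The part of cell composition in the results below was not tested.

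Per unit of transcript length, the disc rim genes were the most abundant. In untreated wildtype retinas, Prph2 was at 2151 ± 61.3 FPKM (fragment counts scaled for transcript length and library size; SD, n = 3) and Rom1 at 1710.2 ± 14.8 FPKM. Cdhr1 followed at 354 ± 33.2 FPKM. The next 3 were Impg1 at 131 ± 14.4 FPKM, Prom1 at 117 ± 9.38 FPKM and Rp1 at 117 ± 9.85 FPKM, whose ranges overlapped. Rp1l1 was at 93.8 ± 1.65 FPKM, Fscn2 at 77.6 ± 4.51 FPKM and Impg2 lowest at 50.9 ± 4.55 FPKM, each apart from its neighbours. In PRDM13-OE + dox retinas the order of these FPKM levels was different. Rom1 at 1719.7 ± 40.5 FPKM and Prph2 at 1659 ± 44.6 FPKM overlapped. Cdhr1, which stood apart from all other members in untreated wildtype retinas, was at 83.6 ± 7.34 FPKM and overlapped Rp1l1 at 71.9 ± 8.26 FPKM. Fscn2 at 31.8 ± 3.39 FPKM and Impg2 at 29.4 ± 2.26 FPKM overlapped at the bottom of the order. Every one of the 9 genes had at least 1213 counts in each retina.

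**Figure D1:**
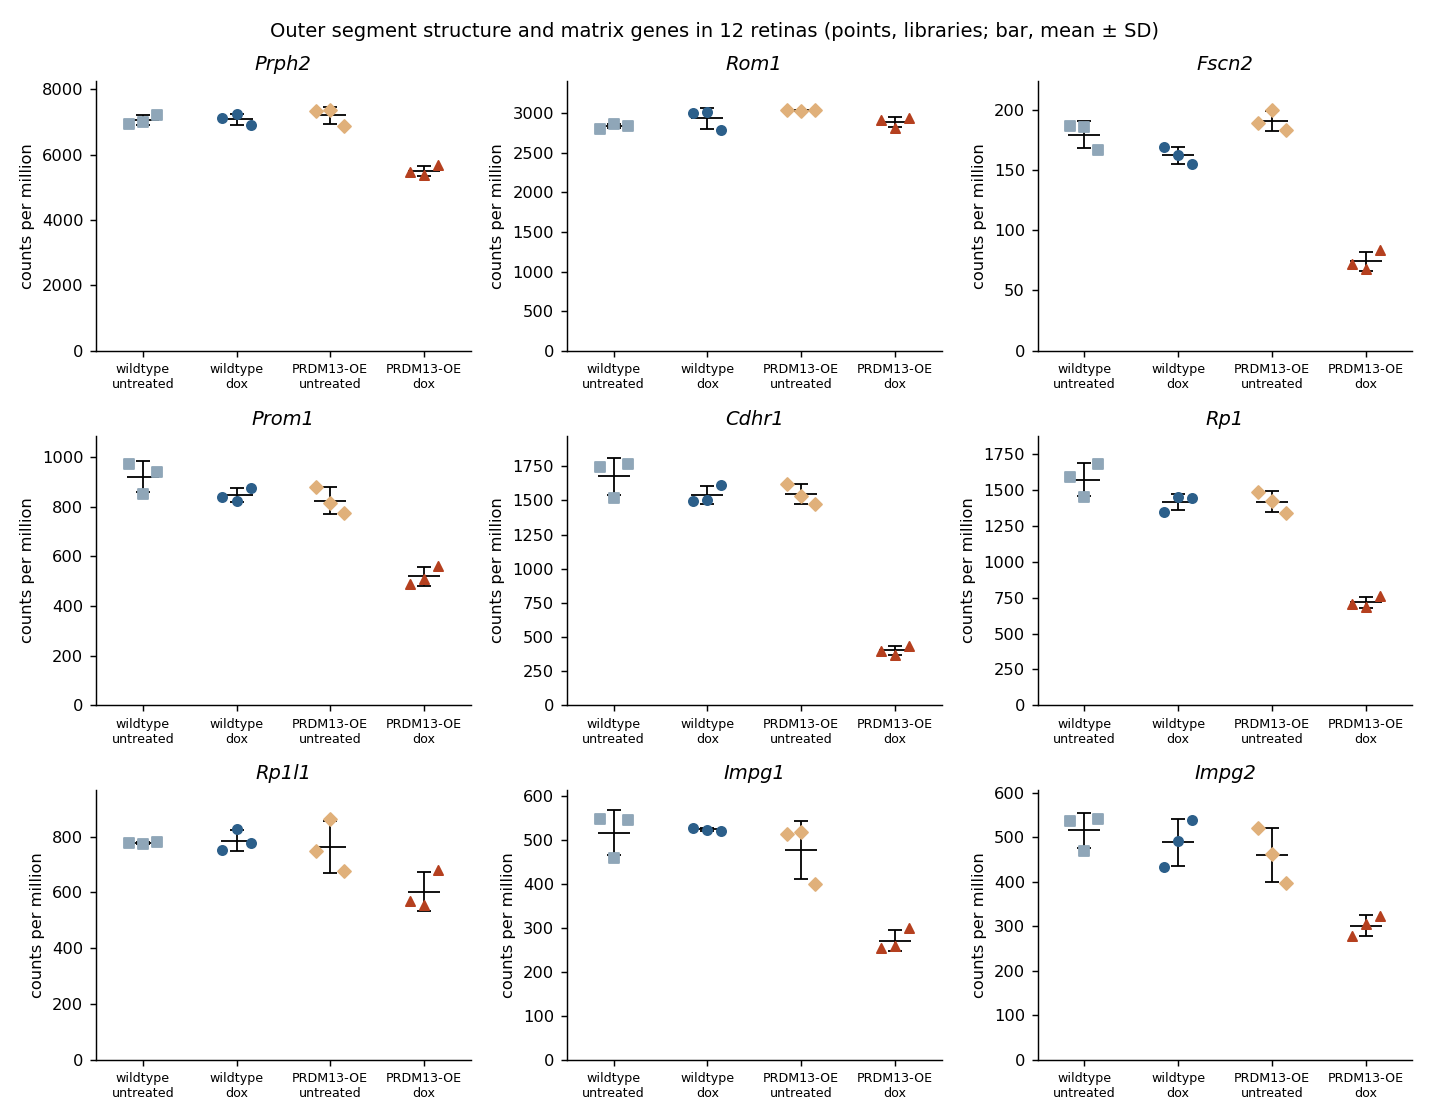
Expression of the 9 genes in the 12 neural retinas, in CPM (TMM scaled, linear axes from 0), with 1 point per mouse and a bar with whiskers for the mean ± SD of each group of 3. The PRDM13-OE + dox points lie below all other retinas for every gene except Rom1 and Rp1l1, with the largest relative separation for Cdhr1 (367 to 437 CPM compared with 1495 to 1613 CPM in wildtype + dox).

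To ask what induced PRDM13 did to these transcripts, PRDM13-OE + dox retinas were compared with wildtype + dox retinas. Of the 9 genes, 8 were lower in PRDM13-OE + dox at an adjusted p under 0.05 (edgeR quasi-likelihood test, adjusted over 20560 genes), where 7.51% of all genes tested (1545) were lower and 1030 were higher. Rom1 was the exception. With library size alone as scaling the same count of 8 passed lower, while over all genes 1007 (4.90%) were lower and 2175 higher. Cdhr1 and Fscn2 also passed a log2-fold change of -1, and 1.50% of all genes were called lower in this way. Without the third PRDM13-OE + dox retina, 4 genes were past this cutoff, with Rp1 and Impg1 added, where 1.14% of all genes were called lower. Without the first wildtype + dox retina 3 were, where 1.31% of all genes were. The same 8 genes had all 3 PRDM13-OE retinas below all 3 wildtype retinas, which held for 15.4% of all genes. The median log2-fold change of the 9 genes was -0.71, compared with 0.01 over all genes tested.

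Among the genes of the nascent disc edge, Cdhr1 (ENSMUSG00000021803, chr14:36799814-36820304, minus strand) fell furthest. It was at 1495, 1502 and 1613 CPM in the wildtype + dox retinas and at 399, 367 and 437 CPM in the PRDM13-OE + dox retinas. The lowest wildtype retina was thus far above the highest PRDM13-OE retina. The log2-fold change was -1.95 with an SE of 0.062 (edgeR adjusted p = 6.23e-09), a 3.85-fold decrease. Among the 2233 genes at a mean of 100 CPM or more in wildtype + dox retinas, 14 fell by more. Prom1 (ENSMUSG00000029086, chr5:44150962-44259374, minus strand) was at 838, 821 and 877 CPM in wildtype + dox and at 487, 507 and 563 CPM in PRDM13-OE + dox. Its fall was smaller than that of Cdhr1, at -0.71 on the log2 scale (SE 0.056, edgeR adjusted p = 8.17e-06). An opposite-strand gene, Gm16401, overlaps Prom1 and had 47 to 83 counts per retina, next to at least 8242 for Prom1. The labels do not settle whether the libraries kept strand, so reads of such a pair cannot be told apart.

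Fscn2 (ENSMUSG00000025380, chr11:120252360-120258994, plus strand), the actin-bundling member, was below the wildtype range in every PRDM13-OE + dox retina. It was at 169, 162 and 155 CPM in wildtype + dox and at 71.6, 68.2 and 83.2 CPM in PRDM13-OE + dox. The log2-fold change was -1.13 with an SE of 0.073 (edgeR adjusted p = 2.11e-06). Of the 2233 genes at 100 CPM or more, 33 fell by more than Fscn2.

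Of the axoneme pair, Rp1 changed more than Rp1l1. Rp1 (ENSMUSG00000025900, chr1:4069780-4479464, minus strand) was at 1350, 1452 and 1443 CPM in wildtype + dox and at 702, 684 and 763 CPM in PRDM13-OE + dox. Its log2-fold change of -0.99 with an SE of 0.049 (edgeR adjusted p = 1.95e-07) lay just short of the cutoff of -1, and 50.4% of the wildtype level was left. Rp1l1 (ENSMUSG00000046049, chr14:64229955-64272474, plus strand) was at 753, 826 and 778 CPM in wildtype + dox and at 570.0, 555 and 681 CPM in PRDM13-OE + dox. These ranges did not overlap, and the log2-fold change was -0.39 with an SE of 0.069 (edgeR adjusted p = 0.00334).

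Both matrix proteoglycans fell. Impg1 (ENSMUSG00000032343, chr9:80220612-80347534, minus strand) was at 528, 524 and 522 CPM in wildtype + dox and at 256, 259 and 299 CPM in PRDM13-OE + dox, a log2-fold change of -0.96 with an SE of 0.060 (edgeR adjusted p = 1.67e-06). Impg2 (ENSMUSG00000035270, chr16:56024676-56094119, plus strand) was at 434, 492 and 538 CPM in wildtype + dox and at 277, 304 and 323 CPM in PRDM13-OE + dox. Its log2-fold change was -0.70 with an SE of 0.080 (edgeR adjusted p = 1.40e-04). Impg1 varied by a few CPM among the wildtype + dox retinas, while Impg2 spread more widely there.

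Of the disc rim pair, Prph2 passed and Rom1 did not. Prph2 (ENSMUSG00000023978, chr17:47221385-47235859, plus strand) was at 7123, 7235 and 6906 CPM in wildtype + dox and at 5460.2, 5396 and 5673 CPM in PRDM13-OE + dox. The decrease was small and the replicates were tight, with a log2-fold change of -0.37 with an SE of 0.026 (edgeR adjusted p = 3.04e-06). Rom1 (ENSMUSG00000071648, chr19:8904755-8906720, minus strand) was at 3006, 3009 and 2785 CPM in wildtype + dox and at 2910.1, 2812 and 2937 CPM in PRDM13-OE + dox. The Rom1 ranges overlapped, and the difference of -0.03 (SE 0.033, edgeR adjusted p = 0.626) changed sign with the scaling, to 0.06 with library size alone (edgeR adjusted p = 0.232).

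The fit without the 2 lens-rich wildtype + dox retinas was a joint fit of all remaining retinas, with 1 wildtype + dox retina left. Its spread is therefore taken from the other groups of retinas. Cdhr1 was then at -2.02 (edgeR adjusted p = 3.39e-09), Fscn2 at -1.07 (edgeR adjusted p = 1.24e-05) and Prph2 at -0.34 (edgeR adjusted p = 0.00474). Rp1 was at -1.02, and so also past the cutoff (edgeR adjusted p = 2.17e-06). Rp1l1 no longer passed, at -0.38 (edgeR adjusted p = 0.0965), and Rom1 was at 0.04 (edgeR adjusted p = 0.803).

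**Figure D2:**
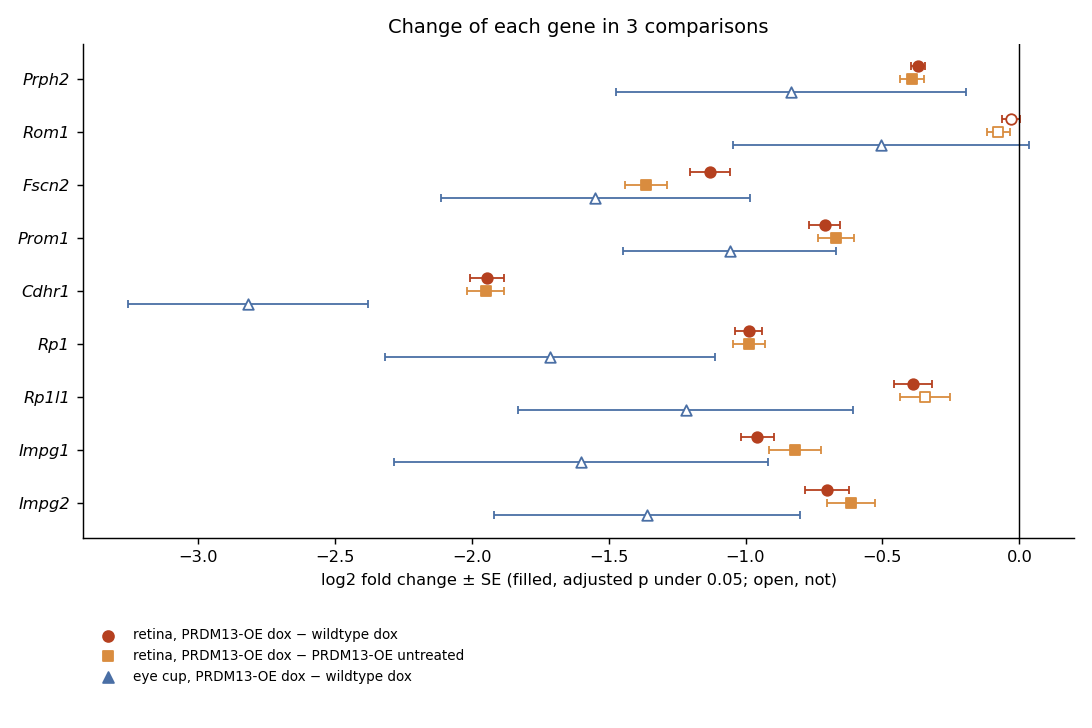
Log2-fold changes ± SE of the 9 genes (edgeR) for PRDM13-OE + dox compared with wildtype + dox retinas, with PRDM13-OE untreated retinas, and, in the eye cup, with wildtype + dox. Filled symbols have an adjusted p under 0.05. Cdhr1 lies furthest below 0 in each, at -1.95 in the first and -2.82 in the eye cup, where no symbol is filled, and Rom1 lies nearest to 0.

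Neither dox alone nor the cassette alone gave a change in these genes that passed the test. Between wildtype + dox and wildtype untreated retinas, 0 of the 9 genes passed (edgeR, smallest adjusted p = 0.432), and 0.00485% of all genes did. Rp1 alone was at an unadjusted p under 0.05 there, as were 9.32% of all genes, and DESeq2 also passed 0. The median log2-fold change of the 9 genes was -0.08, and without the 2 lens-rich retinas it was -0.02, with 0 passed. Between PRDM13-OE untreated and wildtype untreated retinas, 0 of 9 passed (edgeR, smallest adjusted p = 0.995) and 0.00484% of all genes did. Rom1 and Prom1 were at an unadjusted p under 0.05, as were 3.76% of all genes, DESeq2 passed 0, and the median was -0.11. Cdhr1 illustrates the spread of these controls, at 1747, 1519 and 1763 CPM in wildtype untreated and at 1622, 1534 and 1476 CPM in PRDM13-OE untreated retinas. Rom1 was the one gene whose untreated groups did not overlap, at 2805, 2862 and 2843 CPM in wildtype and 3040, 3026 and 3040 CPM in PRDM13-OE. Of all genes, 4.45% lay higher in PRDM13-OE without overlap in the same way.

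Within the PRDM13-OE genotype, retinas with dox were compared with untreated retinas, a comparison that uses the same PRDM13-OE + dox libraries as the first. Here 7 of the 9 genes were lower (edgeR, adjusted p under 0.05), against 2.96% of all genes, and 2 were called, against 0.621%. The median log2-fold change was -0.67. The called genes were again Cdhr1, at -1.95 (SE 0.067, edgeR adjusted p = 5.47e-09), and Fscn2, at -1.36 (SE 0.077, edgeR adjusted p = 4.70e-07). Fscn2 was at 189, 200 and 183 CPM in the PRDM13-OE untreated retinas, the group with the highest mean for this gene. Rp1 was at -0.99 (edgeR adjusted p = 5.73e-07), Impg1 at -0.82 (edgeR adjusted p = 1.53e-04), Prom1 at -0.67 (edgeR adjusted p = 4.79e-05), Impg2 at -0.61 (edgeR adjusted p = 9.12e-04) and Prph2 at -0.39 (edgeR adjusted p = 1.27e-04). Rp1l1 at -0.34 (edgeR adjusted p = 0.0513) and Rom1 at -0.08 (edgeR adjusted p = 0.437) did not pass. For Rp1l1 the spread of the untreated retinas was wide, at 749.7, 863 and 676 CPM.

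The interaction of genotype with dox, fitted over the 12 retinas, tests whether the genotype difference depended on dox. It passed for 7 of the 9 genes, all lower, against 1.83% of all genes that passed lower, and 2 were called lower against 0.515%. Cdhr1 had the largest term, -1.82 on the log2 scale (SE 0.096, edgeR adjusted p = 8.70e-09), and Fscn2 followed at -1.22 (SE 0.104, edgeR adjusted p = 2.13e-06). The terms of Impg1 and Rp1 were both -0.84 (edgeR adjusted p = 7.92e-04 and 1.48e-05). The terms of Prom1 (-0.55, edgeR adjusted p = 0.00195), Prph2 (-0.40, edgeR adjusted p = 1.95e-04) and Impg2 (-0.54, edgeR adjusted p = 0.0359) were smaller, and that of Impg2 did not hold in every alternative fit. Those of Rp1l1 (-0.36, edgeR adjusted p = 0.121) and Rom1 (-0.13, edgeR adjusted p = 0.284) did not pass. Without the 2 lens-rich wildtype + dox retinas, 7 of the 9 genes again passed, all lower, against 1.00% of all genes. Cdhr1 was then at -1.91 (edgeR adjusted p = 3.35e-07), Fscn2 at -1.17 (edgeR adjusted p = 1.02e-04) and Impg2 at -0.69 (edgeR adjusted p = 0.0271).

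The balance within pairs of related members was examined as a ratio of FPKM values within each library, a measure that no library scaling can change. The pairs were chosen after the levels had been seen. Rom1 per Prph2 was 1.02 to 1.05 in the 3 PRDM13-OE + dox retinas and 0.778 to 0.873 in the other 9 retinas. Against wildtype + dox the ratio was higher by 0.34 on the log2 scale (exact two-sided permutation test, p = 0.1). With 3 retinas in each group, 0.1 is the smallest p that this test can give. Rp1l1 per Rp1 was 1.32 to 1.45 in PRDM13-OE + dox retinas and 0.756 to 0.985 in the others, a log2 difference of 0.59 from wildtype + dox (exact permutation p = 0.1). Impg2 per Impg1 was 0.422 to 0.459 compared with 0.321 to 0.404, a log2 difference of 0.26 from wildtype + dox (exact permutation p = 0.1). Cdhr1 per Prom1 moved furthest of these 4, from 2.96 to 3.16 in the other 9 retinas to 1.20 to 1.36 in PRDM13-OE + dox, a log2 difference of -1.24 from wildtype + dox (exact permutation p = 0.1). In each of the 4 pairs, therefore, the PRDM13-OE + dox retinas did not overlap any other retina. Against the 1 wildtype + dox retina that was not lens-rich, with no test, the log2 differences were 0.38 for Rom1 per Prph2, 0.64 for Rp1l1 per Rp1, 0.11 for Impg2 per Impg1 and -1.25 for Cdhr1 per Prom1.

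**Figure D3:**
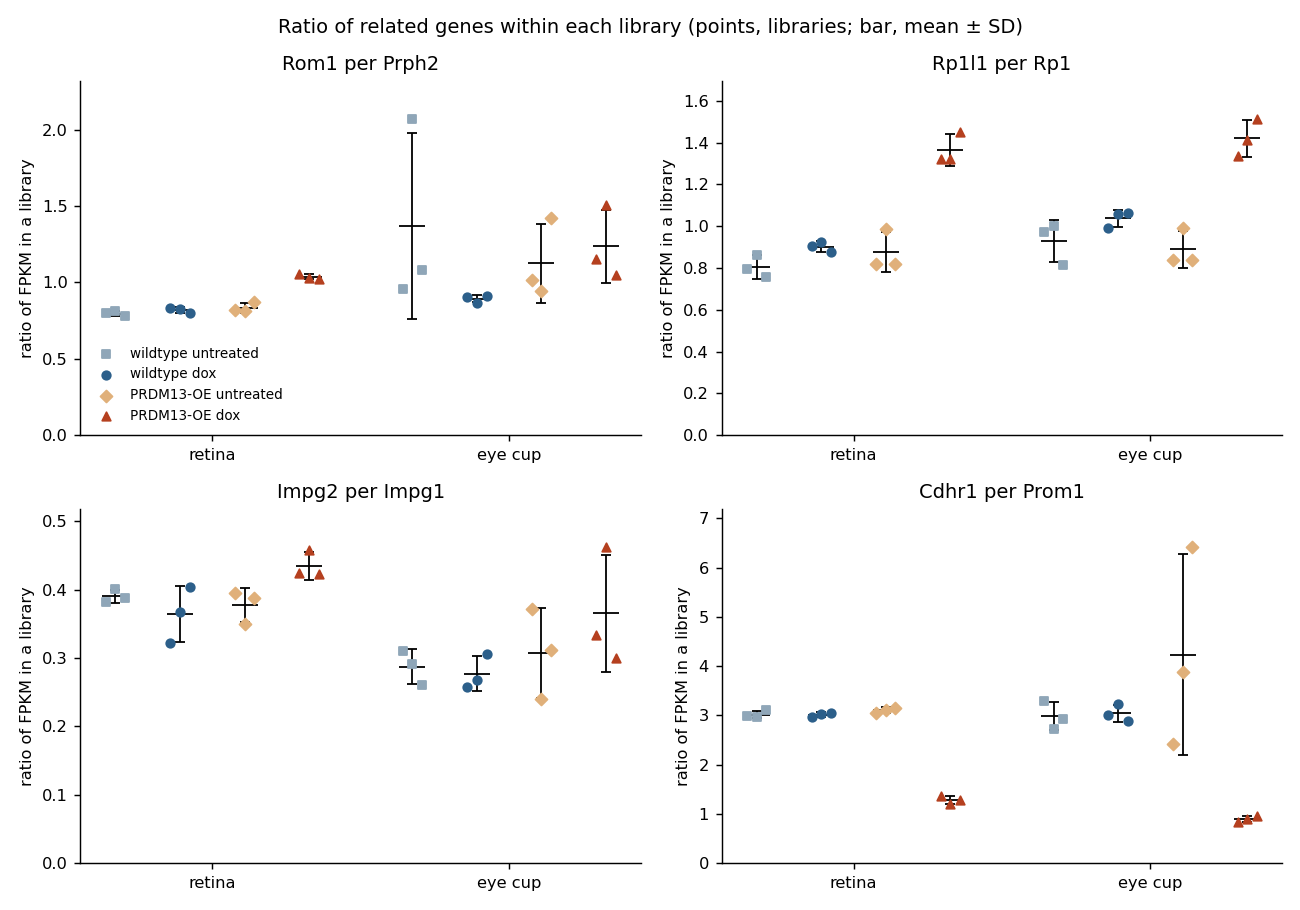
FPKM ratios of 4 gene pairs within each of the 24 libraries (linear axes from 0), with 1 point per library and the mean ± SD of each group, by tissue and group. The Cdhr1 per Prom1 ratio is 1.20 to 1.36 in PRDM13-OE + dox retinas and 0.829 to 0.952 in PRDM13-OE + dox eye cups, below all other libraries of the same tissue.

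Since rod transcripts were lower in the PRDM13-OE + dox retinas, the 9 genes were also set against the mean log2 CPM of the 10 rod markers (among them Gnat1, Sag, Nrl and Nr2e3), of which 7 passed lower, against 7.51% of all genes, and 1, Nr2e3, was called. Without the lens-rich retinas 5 of the 10 passed lower, against 2.17%. Relative to these markers, Cdhr1 was lower in PRDM13-OE + dox than in wildtype + dox retinas by a log2 difference of -1.57 (exact permutation p = 0.1). Fscn2 was lower by -0.75, Rp1 by -0.61, Impg1 by -0.58, Prom1 by -0.34 and Impg2 by -0.32, each with no overlap between the groups (exact permutation p = 0.1). Rom1 was higher relative to rod markers, by 0.35 (exact permutation p = 0.1). Prph2 at 0.01 (exact permutation p = 0.9) and Rp1l1 at -0.02 overlapped. Without Nr2e3 among the markers, Prph2 was at -0.11 and did not overlap (exact permutation p = 0.1), while Cdhr1 was at -1.68 and Rom1 at 0.23. Against the 1 wildtype + dox retina that was not lens-rich, again with all 10 markers and no test, Cdhr1 was at -1.65, Fscn2 at -0.70, Rp1 at -0.65, Impg1 at -0.58, Impg2 at -0.48, Prom1 at -0.40 and Rom1 at 0.41, and Prph2 at 0.04 and Rp1l1 at -0.01 overlapped. With the 10 markers, some genes also separated in the control comparisons (exact permutation p = 0.1 each). In wildtype + dox compared with wildtype untreated retinas, Rom1 was higher by 0.14, Impg1 by 0.12, Rp1l1 by 0.11 and Prph2 by 0.10, without overlap. In PRDM13-OE untreated compared with wildtype untreated retinas, Rom1 was higher by 0.11, without overlap. The other genes overlapped in each.

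The wider gene groups to which the 9 genes belong were described from 3 further lists, 32 genes in all, and 17 of the 32 passed lower, 2 passed higher and 13 did neither in PRDM13-OE + dox compared with wildtype + dox retinas. Over all genes tested, 7.51% passed lower and 5.01% higher, so the 2 that passed higher were near the share of all genes. Their median log2-fold change was -0.21, compared with 0.01 over all genes. Without the lens-rich retinas, 11 of the 32 passed lower, against 2.17% of all genes, and 1 (Cd44) passed higher, against 1.06%. Tulp1 and Rdh8 were then still called lower, as were 0.495% of all genes. Of the 11 disc and outer segment membrane genes, 7 were lower and 1 was higher, and without the lens-rich retinas 6 and 0. Rdh8, an outer segment retinol dehydrogenase, was the 1 gene called in this group, at 40.7, 32.7 and 40.7 CPM in PRDM13-OE + dox and 80.3, 84.3 and 91.8 CPM in wildtype + dox (-1.18, edgeR adjusted p = 4.94e-06). Slc24a1, the rod cation exchanger, was at -0.81 (edgeR adjusted p = 2.21e-06). Gucy2e, a photoreceptor guanylate cyclase, was higher, at 0.23 (edgeR adjusted p = 0.00534), but did not pass without the lens-rich retinas (edgeR adjusted p = 0.158). The lipid transporter gene Abca4 was at -0.01 (edgeR adjusted p = 0.946), and at 0.08 with library size alone as scaling.

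Of the 11 axoneme and disc genesis genes, 3 passed lower, 1 passed higher and 7 passed in neither direction, next to 7.51% and 5.01% of all genes in the same order. The median of the 11 was -0.05, and 0.04 with library size alone as scaling. Without the lens-rich retinas, 2 passed lower and none higher. Tulp1, which is needed for protein transport to the outer segment, was called. It was at 469, 424 and 499 CPM in PRDM13-OE + dox and at 1368, 1390.2 and 1288 CPM in wildtype + dox retinas (-1.55, edgeR adjusted p = 1.52e-08). Pcare, an actin-associated protein of disc formation, was at -0.71 (edgeR adjusted p = 7.20e-04) and Cc2d2a, a ciliary transition zone gene, at -0.21 (edgeR adjusted p = 0.0482). Mak, a ciliary kinase, was higher, at 0.35 (edgeR adjusted p = 0.00316). Without the lens-rich retinas, Cc2d2a (edgeR adjusted p = 0.383) and Mak (edgeR adjusted p = 0.0569) did not pass. The other transition zone and cilium genes, Rpgr, Rpgrip1, Lca5, Cep290, Spata7 and Iqcb1, lay between -0.11 and 0.22 and did not pass.

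Of the 10 matrix genes, 7 passed lower, where 7.51% of all genes did, none was higher and none was called, where 1.50% of all genes were called lower. Without the lens-rich retinas, Mfge8, Egflam and Crb1 were the 3 that passed lower, while Timp3 (edgeR adjusted p = 0.0782) and Rbp3 (edgeR adjusted p = 0.386) did not pass, and Cd44, a hyaluronan receptor, passed higher at 0.84 (edgeR adjusted p = 0.00584) with 1 wildtype + dox retina left. With all 3 it was at 0.28 and did not pass (edgeR adjusted p = 0.322), and it passed in 3 of 14 alternatives, which ranged from 0.08 to 0.84. Mfge8 was at -0.94 (edgeR adjusted p = 4.47e-06), Timp3, a metalloproteinase inhibitor, at -0.81 (edgeR adjusted p = 2.70e-04) and Egflam, the synaptic matrix protein pikachurin, at -0.73 (edgeR adjusted p = 3.46e-06). Crb1, a polarity protein of the outer limiting membrane, was at -0.55 (edgeR adjusted p = 1.82e-05), and Rbp3, the abundant retinoid-binding protein of the interphotoreceptor matrix, at -0.20 (edgeR adjusted p = 0.00179). Vcan was at -1.40 with a wide error (SE 0.426, edgeR adjusted p = 0.0532).

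**Figure D4:**
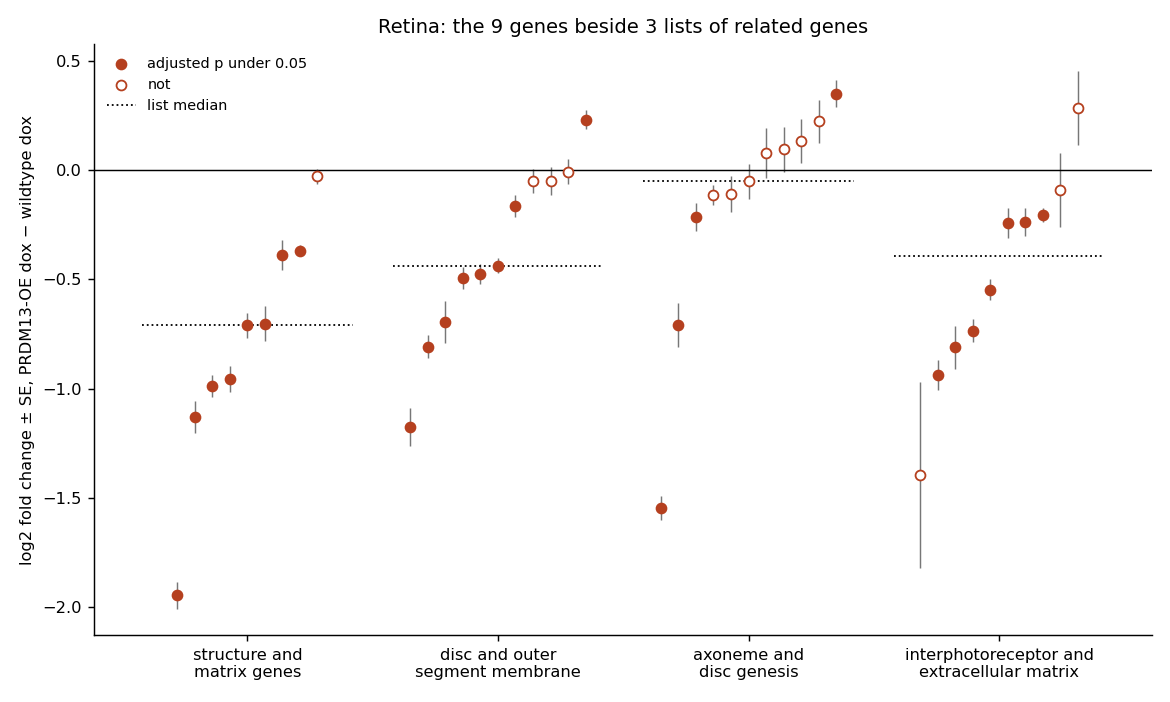
Log2-fold changes of the 9 genes and of the 32 genes of the 3 further lists, PRDM13-OE + dox compared with wildtype + dox retinas (edgeR), with 1 point ± SE per gene (filled at an adjusted p under 0.05), the median of each list as a dotted line and a solid line at 0. The medians are -0.71 for the 9 genes, -0.44 for disc and outer segment membrane, -0.05 for axoneme and disc genesis and -0.39 for matrix genes.

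Genes whose log2 CPM across the 12 retinas was most like that of each of the 9 genes were found among 10213 genes with a mean of at least 10.0 CPM. These correlations are given as a description, since all points share the same 12 libraries and 3 of them differ from the rest. Cdhr1 was most like Adipor1 (Pearson r = 0.997), Acsl1 (0.995) and Lrit2 (0.995). Adipor1, a membrane receptor gene expressed in photoreceptors, was also among the nearest 3 of Rp1 (0.993) and Prph2 (0.984). Fscn2 was most like Aipl1 (0.991), a photoreceptor chaperone of phosphodiesterase. Prom1 was near Cnga1 (0.988), the rod cyclic nucleotide-gated channel, and near Rp1 (0.988), and Impg2 was nearest Prom1 (0.973). Rp1l1 had Pde4dip as its nearest gene (0.962). Rom1 had Zbed3 (0.847) among its nearest 3 genes.

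In untreated wildtype mice, the 9 genes were all called higher in the retina than in the eye cup of the same mice, where 19.3% of all genes tested were. The log2 differences were 1.84 (Rom1) to 3.08 (Impg2), with a median of 2.29, and edgeR adjusted p from 6.17e-04 (Prom1) to 0.0162 (Prph2). The eye cups were far more variable than the retinas, as Prph2 shows at 2232, 287 and 1128 CPM in the 3 untreated wildtype eye cups. The summed rod markers went with this, at 22941, 2907 and 11714 CPM in the same libraries. Prom1 followed the rod sum less closely, at 254, 121 and 130 CPM, so that relative to the rod markers it was at 0.08 in the second eye cup and at -1.89 and -1.99 in the others. Cdhr1 and Rom1 departed from the rod level in the second eye cup as well. In the order of the eye cups, Cdhr1 was at -0.90, 0.80 and -1.17 and Rom1 at 0.20, 1.38 and 0.26 relative to the rod markers. Without the eye cup at 1128 CPM, 5 of the 9 genes were called (median 2.27), where 19.0% of all genes were called higher, and Prph2 (edgeR adjusted p = 0.0678), Rp1l1, Impg1 and Fscn2 were not. Over all 12 eye cups the rod sum ran from 2907 to 45345 CPM, while the RPE markers ran from 7122 to 53095 CPM.

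Between PRDM13-OE + dox and wildtype + dox eye cups, 0 of the 9 genes passed by edgeR, where 0.0184% of all genes tested did, and 6 were at an unadjusted p under 0.05, as were 8.24% of all genes. The median log2-fold change of the 9 genes was -1.36, compared with 0.05 over all genes. Cdhr1 was lowest again, at 865, 741 and 539 CPM in wildtype + dox and at 85.7, 50.3 and 156 CPM in PRDM13-OE + dox. All 3 PRDM13-OE + dox eye cups were also below the remaining 9 for this gene. Its log2-fold change of -2.82 (SE 0.439) had an unadjusted p of 2.92e-04 and did not pass after adjustment (edgeR adjusted p = 0.511). DESeq2 passed Cdhr1 alone of the 9, at -2.83 (DESeq2 adjusted p = 4.28e-07), where 0.276% of all genes were lower. Without the third PRDM13-OE + dox eye cup, the one at 156 CPM, edgeR put Cdhr1 at -3.30 (edgeR adjusted p = 0.0122) and passed 7 of the 9 genes, all lower, where 6.91% of all genes were lower. Fscn2, Prom1, Rp1, Impg1 and Impg2 also had no overlap between the groups, with log2-fold changes of -1.71 (Rp1) to -1.06 (Prom1) and an edgeR adjusted p of 0.597 each. With Cdhr1 these were 6 of the 9, and 8.46% of all genes were lower without overlap. Prph2 was at -0.83 (edgeR adjusted p = 0.658) and Rom1 at -0.50 (edgeR adjusted p = 0.752), and both overlapped. For Prph2 the PRDM13-OE + dox eye cups were at 1281, 583 and 3711 CPM and the wildtype + dox eye cups at 4392, 3500.1 and 2404 CPM.

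The rod sums of these eye cups were 11264, 5211 and 35466 CPM in PRDM13-OE + dox and 45345, 34426 and 23182 CPM in wildtype + dox, so the third PRDM13-OE + dox eye cup lay within the wildtype range. Other marker sums were lower in PRDM13-OE + dox without overlap. The red blood cell sum was 12.4 to 14.3 CPM compared with 238 to 559 CPM, and 3 of these 5 markers passed lower, which were all of the genes that passed lower in this comparison. The lens crystallin sum was 196 to 795 CPM compared with 928 to 3419 CPM, and the bipolar sum 432 to 872 CPM compared with 1010.1 to 1062 CPM. The cone, amacrine, Müller glia, RPE, fibroblast and skeletal muscle sums overlapped. The part of these markers in the levels of the 9 genes was not tested. With the rod level as a covariate, added after the data had been seen, Cdhr1 was at -2.22 and passed (edgeR adjusted p = 0.0296), the 1 gene of the 9 to do so, where 0.0276% of all genes passed lower. The median of the 9 genes was then -0.61 in place of -1.36. Rp1 was at -0.93, Fscn2 at -0.78, Impg1 at -0.71 and Prph2 at -0.03 in this fit, and Rom1 was at 0.22, none of which passed. Set against the 10 rod markers within each library, Cdhr1 was lower in PRDM13-OE + dox than in wildtype + dox eye cups by a log2 difference of -1.79 (exact permutation p = 0.1), next to -1.57 in the retinas. Rp1 was lower by -0.90, Impg1 by -0.88, Fscn2 by -0.65, Impg2 by -0.51 and Rp1l1 by -0.44, all without overlap (exact permutation p = 0.1). Rom1 was higher by 0.41 (exact permutation p = 0.1), and Prph2 at -0.04 and Prom1 at -0.02 overlapped. Without Nr2e3 among the markers, Rom1 was at 0.30 and overlapped (exact permutation p = 0.2), while Prph2 was at -0.15 and did not overlap (exact permutation p = 0.1). The within-library ratios of the eye cups gave the same picture for 2 pairs. Rp1l1 per Rp1 was 1.33 to 1.51 in PRDM13-OE + dox eye cups and 0.813 to 1.06 in the other 9. Cdhr1 per Prom1 was 0.829 to 0.952 compared with 2.41 to 6.43. Rom1 per Prph2 and Impg2 per Impg1 overlapped with other eye cups.

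**Figure D5:**
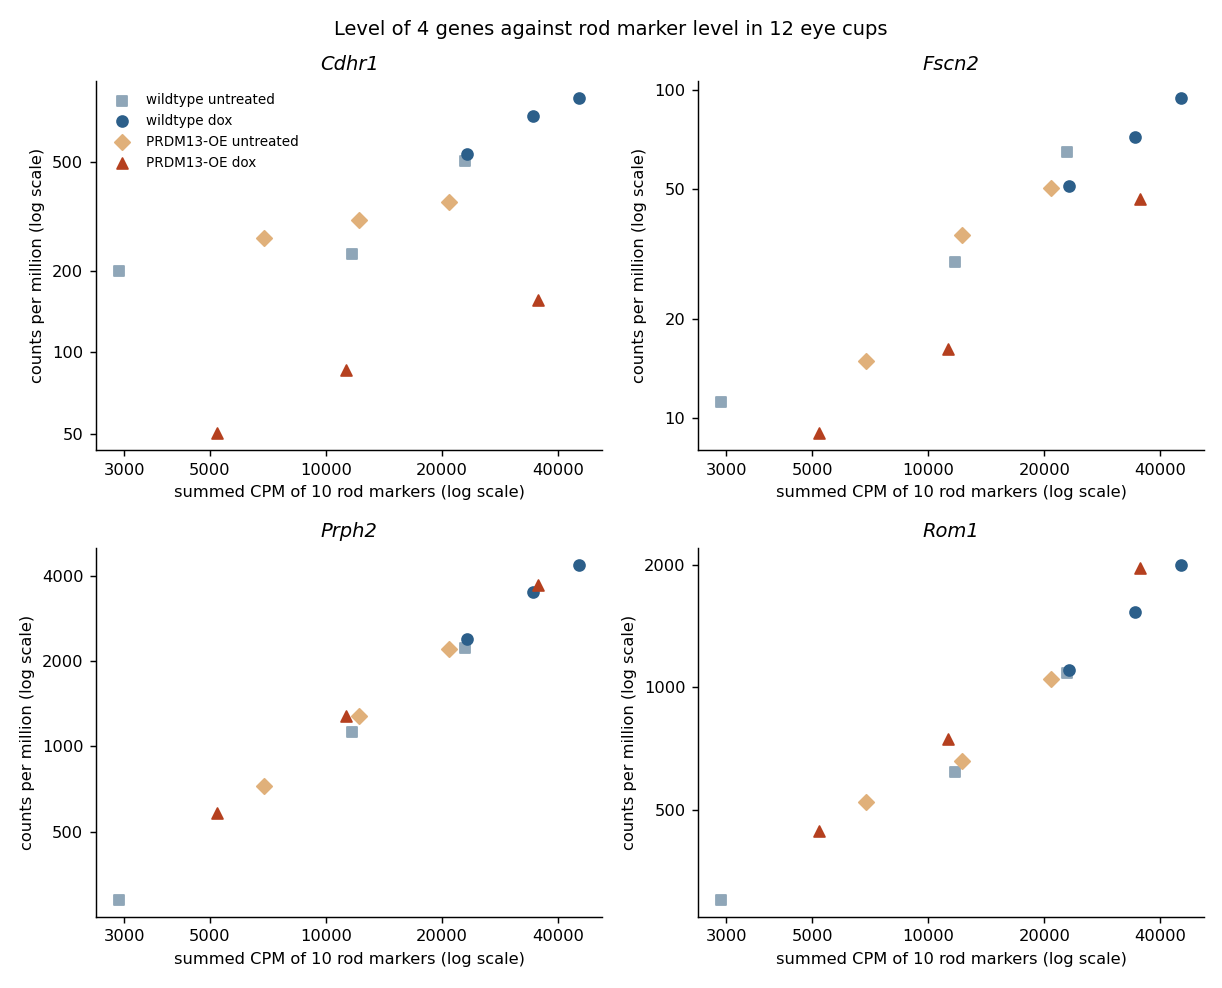
Levels of Cdhr1, Fscn2, Prph2 and Rom1 (CPM) in the 12 eye cups against the summed CPM of the 10 rod markers in the same library (both log axes), with 1 point per library, coloured by group. Cdhr1 of the PRDM13-OE + dox eye cups (50.3 to 156 CPM) lies below all other libraries, including those with a lower rod sum.

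The remaining eye cup comparisons passed none of the 9 genes by edgeR. Between wildtype + dox and wildtype untreated eye cups, 0% of all genes passed, and 5 of the 9 were at an unadjusted p under 0.05, as were 29.9% of all genes. DESeq2 passed those 5 (Rom1, Cdhr1, Prom1, Rp1l1 and Impg1), all higher, where it passed 10.6% of all genes higher. The median log2-fold change was 1.44, and 0.24 with the rod level as a covariate, and 8 of the 9 genes had all 3 wildtype + dox eye cups above the untreated ones, with Fscn2 the exception, as did 21.4% of all genes. Without the first wildtype untreated eye cup, 7 of the 9 passed higher by edgeR, as did 9.36% of all genes. The rod sums of these groups did not overlap either, as given above. Other marker sums also moved without overlap: from untreated to dox, the 10 RPE markers went from between 28238 and 44174 to between 9717 and 20090.2 CPM, and the 8 Müller glia markers from between 12290 and 18484 to between 9415 and 10819 CPM. The cone sum went from between 81.6 and 419.5 to between 472 and 869.8 CPM, the bipolar sum from between 523 and 805 to between 1010.1 and 1062 CPM, and the amacrine sum from between 388 and 644 to between 908 and 1174 CPM. Their part in the higher levels of the 9 genes was not tested. Between PRDM13-OE untreated and wildtype untreated eye cups, 0% of all genes passed, and 0 of the 9 were at an unadjusted p under 0.05, as were 1.87% of all genes. DESeq2 passed 0 of the 9, and their median was -0.01. Between PRDM13-OE + dox and PRDM13-OE untreated eye cups, 0.0139% of all genes passed, with a median of 0.17 for the 9 genes, and of -0.19 with the rod covariate. Cdhr1 was the 1 gene of the 9 whose groups did not overlap there, where 4.94% of all genes were lower without overlap, and the 1 at an unadjusted p under 0.05, where 4.14% of all genes were. It was at 306, 359 and 264 CPM in the untreated eye cups, a log2-fold change of -1.67 with an SE of 0.429 (edgeR adjusted p = 0.975), and DESeq2 passed 0 of the 9. Relative to the rod markers this Cdhr1 difference was -1.89 (exact permutation p = 0.1).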

How the data were processed

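Neural retinas and eye cups of 12 mice were sequenced for the authors by Novogene on Illumina platforms after poly-T selection. The submitters' processing notes name CASAVA, HISAT2 and GRCm39 (mm39). The counting tool and the annotation release are not given in the sources used here. The authors deposited raw read counts per gene, which entered every test, and FPKM values computed by the authors from gene length and read count, which were used to compare levels between genes. The 60 columns that hold means, fold changes and p-values of the authors' 12 comparisons were not used. Totals ran from 15825059 to 24908314 counts per library, and their size covers counting error only.

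Groups were taken from the sample labels. The quasi-likelihood test of edgeR 4.0.16 was run on TMM-scaled counts in R 4.3.3. Genes entered a comparison if its libraries held 10 or more of their counts in sum, and p-values were adjusted over these genes by the Benjamini-Hochberg method. A gene passed at an adjusted p under 0.05 and was called if its log2-fold change was also past 1 in either direction. The SE is the log2-fold change divided by the square root of F. CPM were scaled by TMM, and logs of CPM used a pseudocount of 0.5. Single ratios were compared by exact two-sided permutation tests. DESeq2 1.42.0, library size scaling, no filter, filterByExpr, robust fitting, a joint fit per tissue, a block on the mouse number and leaving out each library were alternatives. A rod marker covariate and a joint fit of the retinas without the 2 lens-rich ones were added after seeing the data. The default edgeR and DESeq2 fits were tested on simulated counts for the genotype comparison with dox in each tissue and for the retina interaction. The other steps were not tested in this way. Steps outside R were run in python 3.11.15 (numpy 2.4.6, pandas 2.3.3, scipy 1.17.1, matplotlib 3.10.9).

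Retina and eye cup with the same mouse number came from the same animal, and their deviations from the group means correlated at 0.121, 0.159 and 0.128 in untreated wildtype mice. The 9 genes and all lists were chosen with earlier results of these data known. Named genes were the 9 genes, the other list members with the largest changes or smallest adjusted p, and for each gene the 3 most alike over the 12 retinas. All 9 gene IDs overlapped their positions in GENCODE vM39. Promoters came from RefSeq. Rp1 and Rp1l1 had no entry there. Values of some single genes of the lists are not reported here.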

Additional observations from a re-analysis of the deposited data

Results flagged for a closer look

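For 7 of the 9 genes the difference between PRDM13-OE and wildtype retinas depended on dox, by the interaction term fitted over the 12 retinas (edgeR, adjusted p under 0.05). All 7 were lower, where 1.83% of all genes passed lower, and the term of Impg2 did not pass in every alternative fit. On the log2 scale the genotype difference with dox minus that without dox was -1.82 for Cdhr1, -1.22 for Fscn2, -0.84 for Impg1, -0.84 for Rp1, -0.55 for Prom1, -0.54 for Impg2 and -0.40 for Prph2. Behind the Cdhr1 value stand genotype means of 401 and 1537 CPM with dox and of 1544 and 1676 CPM without dox (PRDM13-OE first).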

How the results depend on the processing

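In the retina, the count of the 9 genes lower in PRDM13-OE + dox than in wildtype + dox was 8 and stayed at 8 with each retina left out and in the other fits, except for 7 without the 2 lens-rich wildtype + dox retinas. Against PRDM13-OE untreated it was 7 (7 to 8), and for the interaction 7 (6 to 8). Among the fold changes of the 9 genes printed above, the sign turned for Rom1: between the genotypes with dox in the retina it was at 0.0599 with library size scaling and at 0.0387 without the lens-rich retinas, and in the eye cups at 0.22 (edgeR adjusted p = 0.731) with the rod covariate. Of the 32 genes of the 3 further lists, 6 changed sign between the genotypes with dox in the retina in at least 1 alternative, none of which had passed. Abca4, Atp8a2, Tmem30a and Lca5 turned with library size scaling. Impg2's interaction was past the threshold in 10 of 19 alternatives, and not with robust fitting (edgeR adjusted p = 0.133) the replicate block or 7 of the left-out retinas.

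In the eye cups, the count between the genotypes with dox was 0 and became 1 with DESeq2, 1 with the rod covariate, and 0 to 7 with each eye cup left out. Over all genes, 0.276% passed lower with DESeq2 and 0.0276% with the rod covariate. Without the third PRDM13-OE + dox eye cup, which gave the count of 7, 6.91% did. Between wildtype with and without dox it was 0 and became 5 with DESeq2, 1 without the count filter, and 0 to 7 with each eye cup left out. Over all genes, DESeq2 passed 10.6% higher there. Without the count filter, 926 of 29063 genes passed higher and 678 lower. Without the first wildtype untreated eye cup, which gave the count of 7, 9.36% of all genes were higher. Between untreated retina and eye cup it was 9, and 5 to 9 with each library left out. Library size scaling moved the median of all genes there from -0.06 to 0.24, and in wildtype eye cups with against without dox from -0.05 to 0.13. In the comparisons with medians near 0, the median of the 9 genes changed sign with a library left out, reaching 0.01 in both retina control comparisons, 0.91 between the untreated eye cups and -0.67 between PRDM13-OE eye cups with and without dox.

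With the mouse number as a replicate block, the paired comparison of retina and eye cup kept a count of 9. In the other comparisons the number marks different mice and pairs nothing. The block gave 8 and 7 genes in the retina comparisons with PRDM13-OE + dox, 6 for the interaction, where Impg2 no longer passed (edgeR adjusted p = 0.0549), and 0 in the eye cups.

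Over all genes, 2575 passed between the genotypes with dox in the retina, and 1504 to 2209 with each retina left out. In the joint fit of the 12 retinas, 761 passed higher and 1159 lower. The fit without the lens-rich retinas was joint as well and passed fewer, with 1 wildtype + dox retina left. Without the count filter, 1658 in place of 1031 passed between PRDM13-OE with and without dox, and 1433 in place of 682 for the interaction. DESeq2 passed 119 in place of 4 in the eye cups with dox and 4039 in place of 0 in wildtype eye cups with against without dox. The causes were not tested. The SE of the 9 log2-fold changes between the genotypes with dox was 0.389 to 0.681 in the eye cups and 0.026 to 0.080 in the retinas.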
